A study of Rattus norvegicus with 24 samples.

Results

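Nfe2l2, Keap1, Hmox1, Nqo1 and Gclc, 5 of the 32883 genes in the deposited tables, encode the oxidative stress regulator NRF2, its inhibitor KEAP1 and 3 classic NRF2 targets. They were taken by their Ensembl identifiers, ENSRNOG00000001548 (Nfe2l2), ENSRNOG00000020878 (Keap1), ENSRNOG00000014117 (Hmox1), ENSRNOG00000012772 (Nqo1) and ENSRNOG00000006302 (Gclc). The symbols come with that selection: the tables hold identifiers alone, and none of the 47357 genes of the RefSeq list used here carries an Ensembl number, so the pairing was not tested against an annotation. RNA was sequenced from 24 heart samples of rats of the strain WI, in 4 groups of 6: DAAO left ventricle with septum, CTL left ventricle with septum, DAAO right ventricular free wall and CTL right ventricular free wall. DAAO is read as D-amino acid oxidase, an enzyme that yields hydrogen peroxide from D-amino acids, and CTL as control; the series title speaks of chemogenetic heart failure. The labels give no vector, promoter, dose, duration, age or sex, and do not say what the CTL animals received. Each 4-digit number occurs in 1 left and 1 right sample of the same group and is read as the animal, 12 in all, named by its table column with D_ for DAAO and C_ for CTL. Nothing states that the numbers are separate rats, so the p-values measure the spread between these samples. All DAAO numbers are above all CTL numbers, and the groups cannot be told apart from anything that runs with the numbering.

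NRF2 is a basic leucine zipper transcription factor that KEAP1, a cysteine-rich adaptor of a CUL3 ubiquitin ligase, holds at a low level by marking it for degradation. Electrophiles and peroxide modify KEAP1, NRF2 protein then escapes degradation, enters the nucleus and binds, with small MAF proteins, to antioxidant response elements. Because this control acts largely on the NRF2 protein, the level of Nfe2l2 mRNA is not a measure of NRF2 activity, and the targets are the usual readout. In the heart the pathway is known for protecting cardiomyocytes from oxidative injury.

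The core of the antioxidant response element was searched as TGACNNNGC on both strands in the RefSeq promoter sequences of the rat assembly GRCr8. The window of a gene was the 250 bases before the start used in the table of these sequences. That table held 4 of the 5 genes, Hmox1 being the missing entry. The core was in none of the 4 windows, and 10.1% of the 33469 promoters in the table held it. The windows of Nfe2l2 and Gclc overlap the RefSeq span of the gene itself, so they are not wholly upstream of it, and are not shown. Those of Nqo1 and Keap1 are shown because they lie outside the RefSeq span of their genes. Nqo1 is a target whose mRNA rose in both ventricles, and Keap1 the regulator whose mRNA was called in neither. Capitals mark a TATA box (TATAAA, in 12.9% of promoters) and a GC box (GGGCGG, in 30.5%), each searched on both strands. The Nqo1 window, chr19:52220268-52220517 on the minus strand of GRCr8, held 1 of each. The TATA box began 59 bases before the start. The GC box was read on the opposite strand. The Keap1 window, chr8:28054043-28054292 on the minus strand, held neither motif. Of the windows not shown, that of Nfe2l2 held 6 GC boxes and no TATA box, and that of Gclc 1 of each motif. The TATAAA match of Gclc began 244 bases before the start, at the far end of its window.
Nqo1: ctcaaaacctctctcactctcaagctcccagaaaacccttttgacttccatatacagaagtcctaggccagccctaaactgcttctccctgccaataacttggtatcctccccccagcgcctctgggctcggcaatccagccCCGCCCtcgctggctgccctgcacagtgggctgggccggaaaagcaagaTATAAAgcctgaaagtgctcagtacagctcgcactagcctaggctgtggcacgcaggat
Keap1: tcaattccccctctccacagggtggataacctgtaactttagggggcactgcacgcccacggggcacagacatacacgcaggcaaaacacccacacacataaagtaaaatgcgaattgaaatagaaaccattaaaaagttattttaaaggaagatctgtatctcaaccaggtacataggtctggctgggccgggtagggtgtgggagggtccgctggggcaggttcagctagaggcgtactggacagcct
The absence of these letters says only that they are not in these windows. The response elements described for rat Nqo1 and mouse Hmox1 lie farther upstream.

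Levels are normalized counts, read counts divided by 1 size factor per library, set by the authors separately for each ventricle. Libraries held 15363539 to 23263897 reads in the left and 13280705 to 18777633 in the right ventricle, and the 5 genes 198 to 6425 and 208 to 12309 reads per library. Effects are log2 fold changes, DAAO over CTL, of log2(value + 1), tested with limma across all genes with a mean of at least 10, with a Benjamini-Hochberg adjusted p below 0.05 as the threshold. All 5 genes passed that filter in both tables. In the left ventricle 5235 of 14041 genes (37.3%) passed the threshold, 17.3% higher and 20% lower in DAAO. In the right ventricle 3574 of 13489 genes (26.5%) did, 12.5% higher and 14% lower. Without animals C_7000 and C_7005, the CTL animals with the lowest numbers, the left and right shares were 47.8% and 30.7%. They were 46.2% and 31.5% without C_7005 alone, but 36.2% and 24.1% without C_7000 alone. Effects are also given without both animals. Over all left ventricular genes the median effect was 0.215 when all libraries were given equal totals and 0.015 with the deposited scaling; the right ventricular medians were 0.268 and 0.022. With equal totals the called genes were 4337 higher and 1628 lower in the left ventricle, against 2430 and 2805 with the deposited scaling. The right ventricular numbers were 3815 and 932, against 1684 and 1890. Markers of cell types were not checked, since identifiers could not be paired with symbols. In whole tissue, a change in the cells present and a change in RNA per cell cannot be told apart.

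The 3 targets were higher in DAAO in both ventricles, with Hmox1 rising most, while Nfe2l2 mRNA rose 1.22-fold in the left ventricle and Keap1 mRNA passed the threshold in neither. In the left ventricle 4 of the 5 genes passed, all higher, against 17.3% of all genes. Of the same genes 3 of 5 passed in the right ventricle, all higher, against 12.5%. The median log2 fold change of the 5 genes was 1.02 in the left and 0.81 in the right ventricle, where the medians of all genes tested were 0.015 and 0.022. The 3 targets were each called higher in both ventricles, as were 1050 of the 13344 genes tested in both (7.87%).

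**Figure D1:**
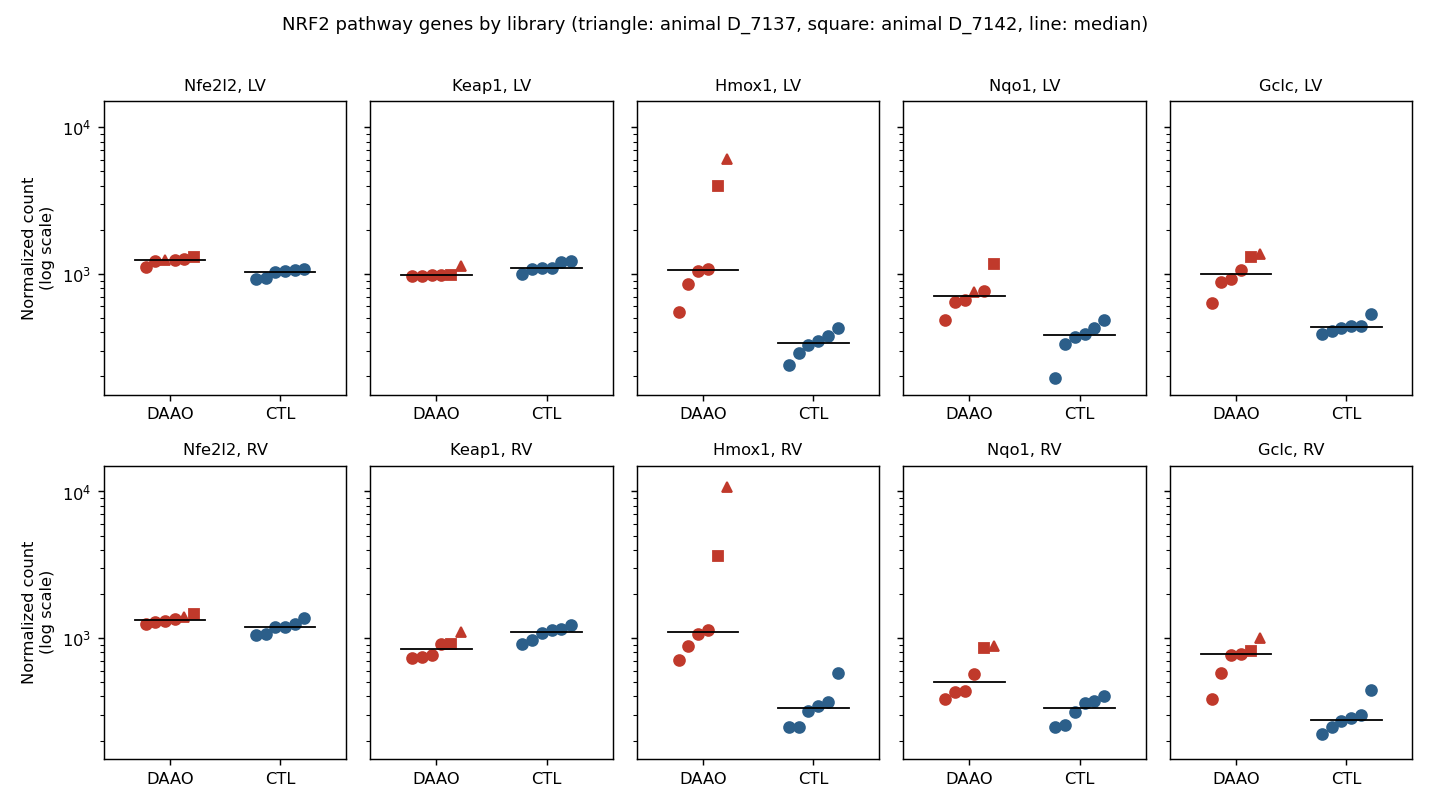
Normalized counts (log scale) of the 5 genes in each of the 24 libraries, left ventricle (LV) above right ventricle (RV), with DAAO and CTL in 6 libraries each, points ordered by value and lines at the medians. Hmox1 in DAAO animal D_7137 (triangles) stands at 6039 in the left and 10683 in the right ventricle, while Nfe2l2 and Keap1 stay between 735 and 1468 in all libraries.

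Nfe2l2, the gene of the transcription factor itself, ranged in the left ventricle from 1108 through a median of 1251 to 1312 in DAAO and from 927 through 1036 to 1077 in CTL. All 6 DAAO libraries lay above all 6 CTL libraries, as in 7.58% of the genes tested. The means were 1233 ± 68.0 in DAAO and 1013 ± 66.8 in CTL (SD, n = 6 each). On the log2 scale Nfe2l2 was 0.28 higher in DAAO (SE 0.06, 1.22-fold, limma adjusted p = 0.00271), and 0.33 higher without animals C_7000 and C_7005 (limma adjusted p = 0.00172). The change passed the threshold and was the 3610th in size among increases over the 14041 genes tested. Right ventricular Nfe2l2 ranged from 1257 through 1323 to 1468 in DAAO and from 1048 through 1198 to 1362 in CTL. The groups overlapped there, with 2 DAAO libraries, those of animals D_7137 and D_7142, above every CTL library. The right ventricular log2 fold change of 0.18 (SE 0.09, 95% confidence interval -0.0064 to 0.37, limma adjusted p = 0.138) did not pass. With equal library totals it was 0.43 and passed (limma adjusted p = 0.00224), against a median of 0.268 for all genes.

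Keap1, the repressor in this circuit, ranged in the left ventricle from 970 through a median of 985 to 1129 in DAAO and from 999.9 through 1101 to 1229 in CTL. In 5 of 6 DAAO libraries the value lay below every CTL library, and animal D_7137 lay within the CTL range. A full separation downward was seen in 8.28% of left and 5.5% of right ventricular genes, and Keap1 was not among them. In the left ventricle its log2 fold change, -0.15 (SE 0.06, limma adjusted p = 0.0725), did not pass, and was -0.17 without animals C_7000 and C_7005 (limma adjusted p = 0.0819). Right ventricular Keap1 ranged from 735 through 838 to 1098 in DAAO and from 908 through 1108 to 1223 in CTL. In 3 of 6 DAAO libraries it lay below every CTL library, and animal D_7137 was again the highest of the DAAO animals. Its log2 fold change, -0.33 (SE 0.12, limma adjusted p = 0.0506), did not pass, and was -0.30 without animals C_7000 and C_7005 (limma adjusted p = 0.118). This value lies so close to the threshold that it passed without DAAO animal D_7137 (-0.40, limma adjusted p = 0.0120) or CTL animal C_7120 (-0.38, limma adjusted p = 0.0397), and in DESeq2. The left ventricular value passed without the same animals (-0.19 without D_7137, limma adjusted p = 0.0315, and -0.19 without C_7120, limma adjusted p = 0.0391). Both values also depend on the scaling. With equal library totals the left ventricular log2 fold change was 0.048, of opposite direction (limma adjusted p = 0.610). The right ventricular one was -0.083 (limma adjusted p = 0.529). Relative to the median of all genes the left value was -0.17 and the right value -0.35 under either scaling.

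Hmox1, which encodes the stress-inducible heme oxygenase that breaks heme down to biliverdin, carbon monoxide and iron, differed most among the 5 genes. In the left ventricle it ranged from 553 through a median of 1060 to 6039 in DAAO and from 240 through 338 to 429 in CTL. Its right ventricular values ranged from 713 through 1101 to 10683 in DAAO and from 246 through 333 to 581 in CTL. The groups did not overlap in either ventricle, a pattern found in 7.58% of the left and 4.46% of the right ventricular genes. For Hmox1 the log2 fold change was 2.21 in the left (SE 0.50, 4.62-fold, limma adjusted p = 0.00389) and 2.38 in the right ventricle (SE 0.54, 5.21-fold, limma adjusted p = 0.00614). Without animals C_7000 and C_7005 the values were 2.35 (limma adjusted p = 0.00538) and 2.61 (limma adjusted p = 0.00805). In order of size these were the 145th rise among 14041 and the 130th among 13489 genes tested.

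The size of the Hmox1 change was uneven across DAAO animals. Animals D_7137 and D_7142 had 6039 and 3983 normalized counts in the left ventricle and 10683 and 3606 in the right, while the other 4 DAAO animals had 553 to 1076 and 713 to 1136. The ratio of the group means was 6.73 in the left and 8.58 in the right ventricle, against ratios of the medians of 3.14 and 3.31. Without animal D_7137 the log2 fold change was 1.81 in the left (limma adjusted p = 0.00381) and 1.86 in the right ventricle (limma adjusted p = 0.00219). The standard deviation of log2(value + 1) was 1.36 in DAAO and 0.29 in CTL in the left ventricle, and 1.51 in DAAO and 0.45 in CTL in the right.

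Nqo1 encodes a cytosolic quinone reductase that uses NADH or NADPH to reduce quinones by a pair of electrons and so avoids semiquinone radicals. In the left ventricle it ranged from 485 through a median of 707 to 1160 in DAAO and from 196 through 380 to 488 in CTL. Right ventricular values ranged from 384 through 505 to 877 in DAAO and from 248 through 336 to 406 in CTL. A full separation upward was seen in 7.58% of left and 4.46% of right ventricular genes, and Nqo1 was not among them. Each ventricle had 5 DAAO libraries above the whole CTL range and 1 within it. The exceptions were animal D_7138 in the left ventricle, at 485 against a highest CTL value of 488, and animal D_7143 in the right, at 384 against 406. For Nqo1 the left ventricular log2 fold change was 1.02 (SE 0.22, 2.02-fold, limma adjusted p = 0.00342). The right ventricular one was 0.81 (SE 0.22, 1.75-fold, limma adjusted p = 0.0145). Without animals C_7000 and C_7005 the values were 0.84 (limma adjusted p = 0.00430) and 0.80 (limma adjusted p = 0.0246). CTL animal C_7005 had the lowest Nqo1 value of all in each ventricle, and without it alone the left ventricular log2 fold change was 0.85.

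Gclc encodes the catalytic subunit of glutamate cysteine ligase, the rate-limiting enzyme of glutathione synthesis. In the left ventricle it ranged from 633 through a median of 1000.1 to 1372 in DAAO and from 389 through 433 to 529 in CTL. The left ventricular groups did not overlap, with DAAO above CTL as in 7.58% of the genes tested. Right ventricular Gclc ranged from 381 through 773 to 1006 in DAAO and from 221 through 278 to 444 in CTL. The right ventricular groups overlapped through DAAO animal D_7143, at 381, and CTL animal C_7118, at 444. For Gclc the left ventricular log2 fold change was 1.20 (SE 0.16, 2.29-fold, limma adjusted p = 0.000136). The right ventricular one was 1.27 (SE 0.22, 2.41-fold, limma adjusted p = 0.00134). Without animals C_7000 and C_7005 the values were 1.20 (limma adjusted p = 0.000340) and 1.261 (limma adjusted p = 0.00369). Among the 5 genes Gclc had the smallest adjusted p-value in each ventricle, although its fold change was below that of Hmox1.

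**Figure D2:**
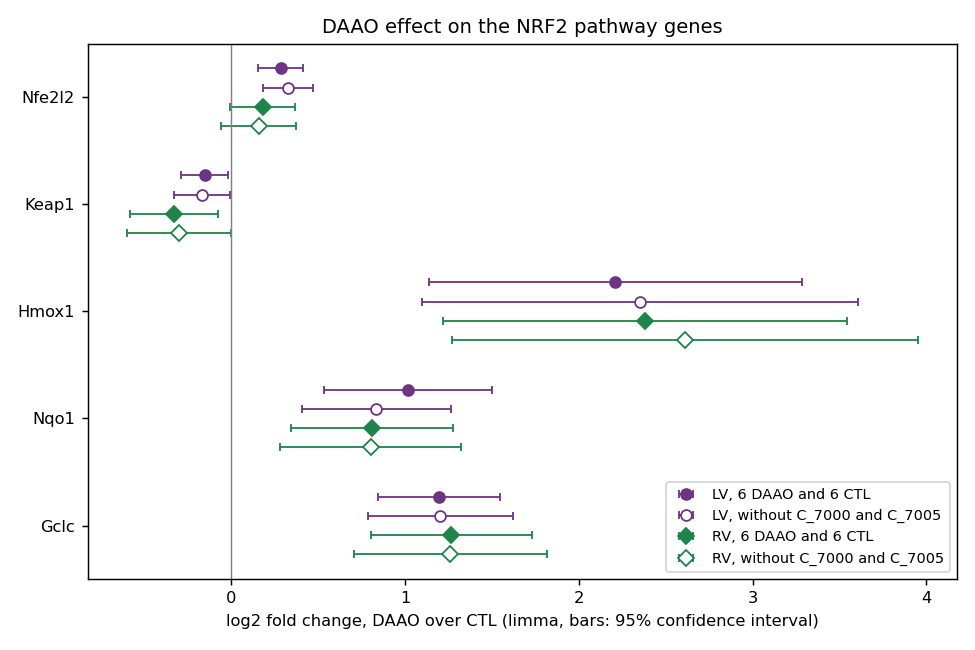
Log2 fold change of DAAO over CTL (horizontal axis) for the 5 genes, as limma estimates with 95% confidence intervals, in the left (LV) and right ventricle (RV), with all CTL animals (filled) and without animals C_7000 and C_7005 (open). Hmox1, Nqo1 and Gclc lie to the right of 0 in all 4 estimates, with Hmox1 at 2.21 to 2.61, and the right ventricular interval of Nfe2l2 crosses 0.

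**Figure D3:**
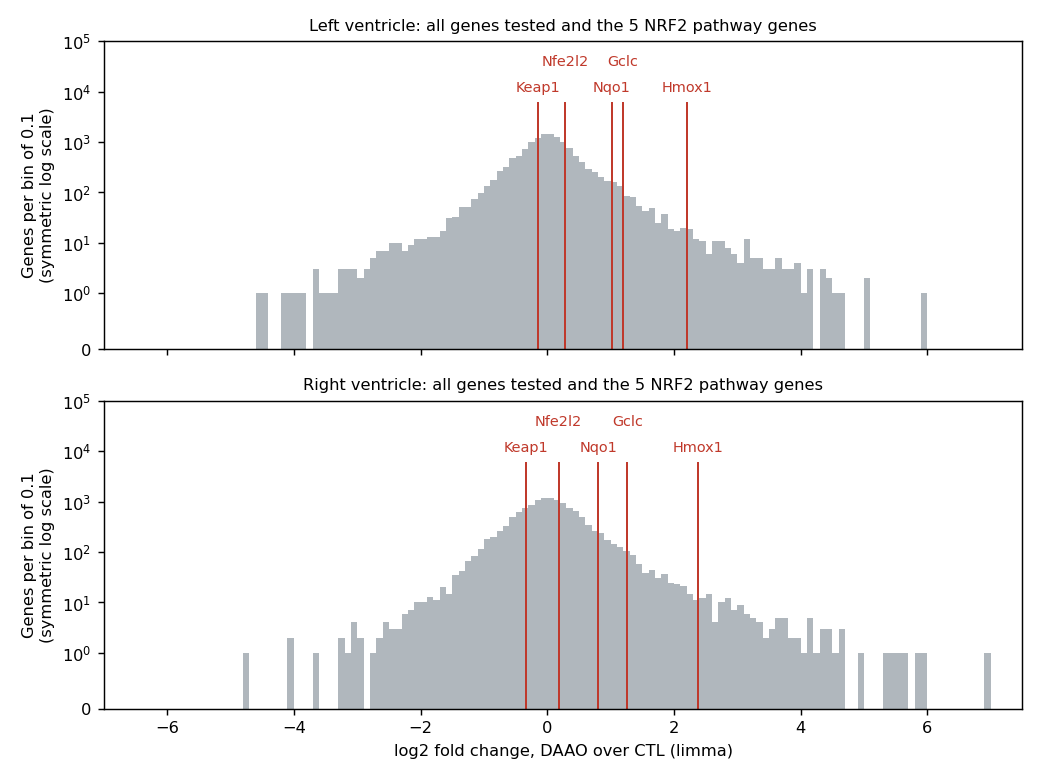
Number of genes per bin of log2 fold change (DAAO over CTL, limma, symmetric log scale), with red lines at the 5 genes, for 14041 left and 13489 right ventricular genes. Hmox1 stands in the right-hand tail at 2.21 and 2.38, and Keap1 and Nfe2l2 stand near the centre of the distribution.

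The DAAO animals with the highest and lowest values recurred across the 3 targets and both ventricles. Over the 6 combinations of target and ventricle, animal D_7142 was among the 2 highest DAAO animals in 6 and animal D_7137 in 5. With equal library totals animal D_7142 lay below animals D_7146 and D_7138 for Gclc in the right ventricle. Animal D_7143 was among the 2 lowest in 5 of 6 and the lowest in all 5 of these. Relative to the CTL mean of log2(value + 1), Gclc stood at 1.65 in the left and 1.81 in the right ventricle of animal D_7137, and at 0.53 and 0.41 in those of animal D_7143. Nqo1 stood at 1.71 and 1.43 in the left and right ventricle of animal D_7142, and at 0.90 and 0.26 in those of animal D_7143. With the deposited scaling animal D_7142 was also the highest DAAO animal for Nfe2l2 in each ventricle, at 0.38 and 0.31. With equal library totals the highest for Nfe2l2 were animal D_7143 in the left and animal D_7135 in the right ventricle. For Keap1 the highest in each with the deposited scaling was animal D_7137, at 0.016 and 0.034, the only DAAO animal above the CTL mean. With equal library totals animals D_7138 and D_7143 stood above it in the left ventricle, and it stayed the highest in the right. The ventricles of an animal are not independent samples, and no test was made of this order. Among CTL animals no animal was among the 2 highest in more than 4 of the 6 combinations.

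**Figure D4:**
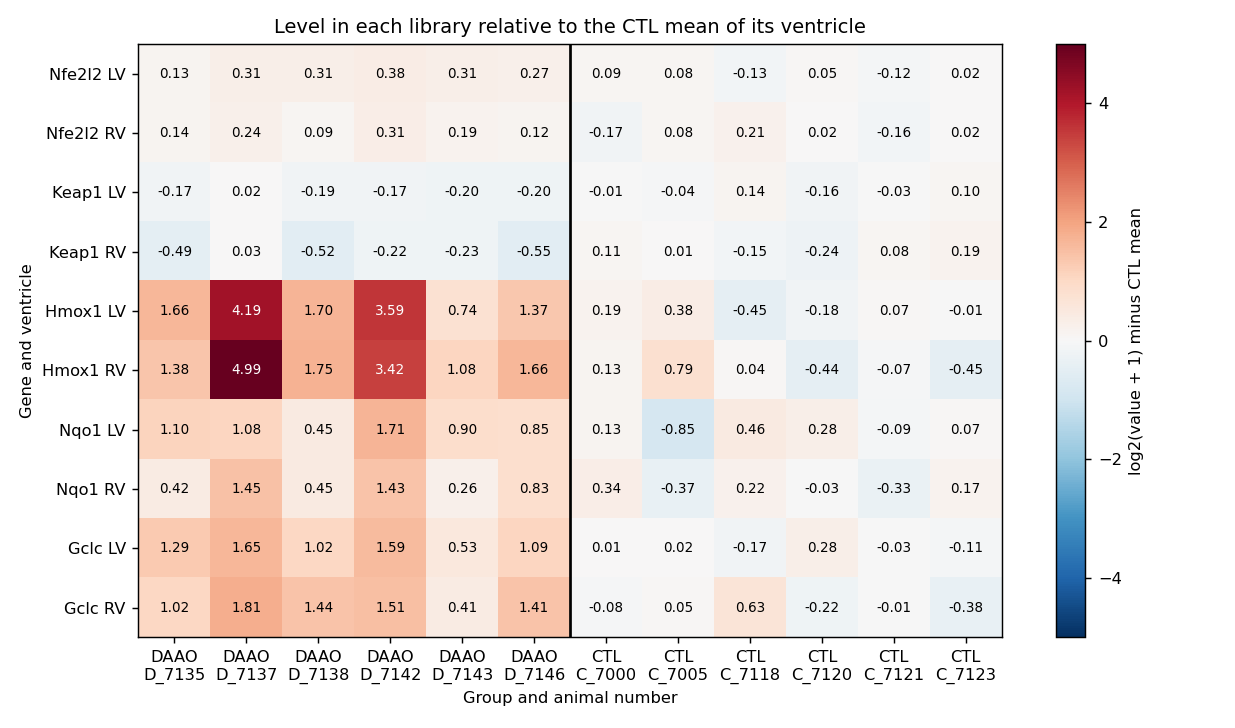
Difference of log2(value + 1) from the CTL mean of the same ventricle, by gene and ventricle (rows) and by animal (columns, DAAO left of CTL), with the value printed in each cell. Hmox1 reaches 4.19 and 4.99 in DAAO animal D_7137, and all 36 target values of DAAO animals are above 0.

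Whether the DAAO effect on these genes differed between the ventricles was tested as the left minus the right effect in a limma fit over all 24 libraries, which treats the ventricles of an animal as independent. None of the 5 genes passed, against 391 of the 13344 genes tested in both tables (2.93%). With the animal number as a block, 1072 genes passed (8.03%), and again none of the 5. The difference was 0.10 for Nfe2l2 (95% confidence interval -0.097 to 0.30, limma adjusted p = 0.639) and 0.18 for Keap1 (-0.094 to 0.45, limma adjusted p = 0.526). For Hmox1 it was -0.17 with an interval from -1.81 to 1.46 (limma adjusted p = 0.945). With the animal number as a block the Hmox1 interval was narrower, from -0.57 to 0.23 (limma adjusted p = 0.612). For Nqo1 it was 0.21 (-0.47 to 0.89, limma adjusted p = 0.822) and for Gclc -0.071 (-0.66 to 0.52, limma adjusted p = 0.936). The left ventricular call of Nfe2l2 beside the missing right ventricular one is therefore no difference that passed a test.

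The genes whose levels ran most alike to those of the regulators were sought by Pearson correlation of log2(value + 1) over the 24 libraries, each table centred on its own mean, among the 10955 genes whose mean was 50 or more in both. This measure includes the difference between the groups and is a description. For Nfe2l2 the most alike gene was ENSRNOG00000004500, at r = 0.83, which averaged 382 ± 165 in DAAO and 138 ± 53.0 in CTL left ventricles and 343 ± 118 in DAAO and 134 ± 61.5 in CTL right ventricles (SD, n = 6 each). For Keap1 it was ENSRNOG00000017405, at r = 0.91, which averaged 3279 ± 266 in DAAO and 3677 ± 415 in CTL left ventricles and 2729 ± 457 in DAAO and 3461 ± 305 in CTL right ventricles (SD, n = 6 each). The files do not pair these identifiers with names.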

How the data were processed

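Gene expression was measured by paired-end RNA sequencing of Trizol-extracted RNA from snap-frozen hearts, per the labels' protocols. STAR 2.7.0a, FastQC, DESeq2 1.26.0 and the build Rnor_6.0 were used, per the submitters' processing notes. How reads were counted, against which annotation and whether by strand is not given in the sources used here, so reads shared with overlapping genes or near copies are uncertain. The authors deposited, for each ventricle, a signal table in which counts had been divided by a size factor for each library. Dividing each library by its smallest value above 0 gave whole reads (100% of values within 1e-06). No libraries of a group agreed within sampling noise (chi-square per degree of freedom at least 12.3).

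Groups were compared with limma 3.58.1 (R 4.3.3) using log2(value + 1) and a trended prior variance, two-sided, over genes with a mean of at least 10, which understates folds of low genes. The fits were also run on simulated reads with known folds, set in the left ventricle only and with the spread of CTL libraries alone. The outcome is not given here. Alternatives were edgeR 4.0.16 and DESeq2 1.42.0 on the recovered reads, which called 5230 and 5564 left and 3497 and 4115 right ventricular genes, pseudocounts of 0.5 and 5, other filters, equal totals, array weights, exact permutation over 924 assignments, a block by animal number, and leaving out animals. The pairing of left and right libraries rests on reading a shared number as the animal, which no label states. Same-numbered libraries deviated together with r from 0.057 to 0.788 across genes, the own number correlated best in 9 of 12 cases, and r was under 0.1 for CTL numbers C_7118 and C_7120. The genes, lists and tests were chosen with earlier results of these data known. Wider pathway lists and cell type markers were not run, because no identifier could be paired with a symbol. The named genes are the 5 genes and, for Nfe2l2 and Keap1, the most alike gene by the stated correlation.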

Additional observations from a re-analysis of the deposited data

Results flagged for a closer look

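Of 20 groups of 6 libraries (5 genes, 2 ventricles, DAAO and CTL), 4 held a library whose gap to its nearest neighbour was large against the range of the group in normalized counts. Chance flags about 1 group in 20 of normally distributed values, a nominal rate here because the groups share animals. On the log2(value + 1) scale used in the fits, a comparison chosen after seeing the data, 1 of the 20 groups was flagged, that of Keap1 in the left ventricle of DAAO animals. Hmox1 stood at 10683 normalized counts in the right ventricle of DAAO animal D_7137, with the next DAAO value at 3606. Keap1 stood at 1129 in the left ventricle of the same animal, with the next DAAO value at 989. This Keap1 gap rests on the deposited scaling. With equal library totals animal D_7137 lay below animals D_7138 and D_7143 for Keap1 in the left ventricle. Hmox1 stood at 581 in the right ventricle of CTL animal C_7005, with the next CTL value at 367. Gclc stood at 444 in the right ventricle of CTL animal C_7118, with the next CTL value at 298. The gap was 0.868 of the range for Keap1 on the log2 scale. For Hmox1 it was 0.401 in DAAO and 0.536 in CTL right ventricles, and for Gclc 0.57 in CTL right ventricles, all under the 0.625 needed. The DAAO effect on Gclc and Hmox1 was called with each of these animals left out, and Keap1 was called in the left ventricle without animal D_7137.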

How the results depend on the processing

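The rises of Hmox1, Nqo1 and Gclc in both ventricles and of Nfe2l2 in the left kept direction and call under all 9 alternatives in the fit across genes and in all 12 fits that left out 1 animal, with log2 fold changes from 1.81 to 2.75 and 1.86 to 3.10 for Hmox1. Exact permutation, which adjusts for no other gene, also gave p below 0.05 for Keap1 in the left (-0.15, p = 0.0346) and right ventricle (-0.33, p = 0.0216) and for Nfe2l2 in the right (0.18, p = 0.0238). The smallest p it can give is 0.00216. Keap1 was also called with array weights (-0.16 left, -0.39 right), under a minimum mean of 100 (-0.33 right) and in DESeq2 (-0.32 right). Without 1 animal the left ventricular value lay between -0.19 and -0.13 and the right one between -0.40 and -0.29. Equal totals gave Keap1 a left ventricular value of 0.048, of opposite sign, and an uncalled right ventricular value of -0.083 (limma adjusted p = 0.529). They gave Nfe2l2 a called right ventricular value of 0.43. For the difference between the ventricles, uncalled throughout for the 5 genes, the sign of Hmox1 turned with array weights (0.052), and Gclc ranged from -0.23 to 0.027 without 1 animal. The number of genes with such a difference, 391, was 1101 with array weights, 739 in DESeq2 and 236 without animals C_7000 and C_7005. Without 1 animal this number ranged from 85 to 616. It was 85 without D_7146, 120 without C_7000, 123 without C_7118, 156 without C_7120, 160 without D_7138 and 184 without D_7142. It was 223 without D_7143, 255 without D_7135 and 292 without C_7121. It rose to 485 without C_7123, 543 without C_7005 and 616 without D_7137. The causes were not tested.

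With the animal number as a replicate block 1072 genes were called for the difference between the ventricles, and Hmox1 stayed at -0.17. The block changed no call among the 5 genes.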

Other observations

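CTL animal C_7005 stood at opposite ends of the CTL range for the 2 target genes Hmox1 and Nqo1. It had the highest Hmox1 of the CTL animals, at 429 normalized counts in the left and 581 in the right ventricle, and the lowest Nqo1, at 196 and 248. Gclc in the same animal, at 443 and 298, was the second highest of the CTL values in each ventricle. In DAAO right ventricles animals D_7137 and D_7142 had the highest Hmox1 and Nqo1. In DAAO left ventricles animal D_7135, at 761, had the second highest Nqo1 after animal D_7142, at 1160, while its Hmox1, at 1044, was below the group median of 1060.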
